A study of Mus musculus with 6 samples.

Results

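The BCL2 family sets whether a cell keeps its mitochondria intact or commits to apoptosis. Described here are 10 of its genes, chosen by name as rows of a table of 25751 mouse genes: the 6 pro-survival genes Mcl1, Bcl2l1, Bcl2, Bcl2a1a, Bcl2a1b and Bcl2a1d, and the 4 pro-death genes Bax, Bak1, Bcl2l11 and Bid. All 10 were found and all 10 passed the filter on low counts. Poly(A)-selected RNA came from primary mouse myeloid cells of genotype WT at 24 h. The first group was labelled Control (libraries Control 1, 2 and 3), and the other received TMAO, trimethylamine N-oxide, a metabolite formed in the liver from a product of gut bacteria (libraries TMAO 1, 2 and 3). In the sample descriptions the TMAO group is called T-BMDM and the other Control, with no reason given. If the cells or the sequencer, of which 2 makes are named, differed between the groups, that cannot be told apart from TMAO. No dose is stated, and no label ties the libraries of a group to separate animals or cultures. The p-values therefore cover only the spread among these libraries, and that spread may be technical.

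BCL2 family proteins share short homology regions and meet at the outer mitochondrial membrane. The effectors BAX and BAK1 form pores that release cytochrome c. The pro-survival proteins MCL1, BCL-XL (from Bcl2l1), BCL2 and A1 (from the Bcl2a1 genes) hold the effectors in check, and the BH3-only proteins, among them BIM (from Bcl2l11) and BID, relieve that hold or activate the effectors. In myeloid cells MCL1 and A1 are known as short-lived proteins with inducible transcripts. Gene counts do not separate splice forms, which matters for Bcl2l1 and Bcl2l11, since each encodes proteins of differing activity by splicing.

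With TMAO, all 6 pro-survival genes rose, while the 4 pro-death genes went different ways: Bax rose, Bcl2l11 fell, and Bak1 and Bid did not pass the test. Bcl2a1d and Bcl2a1a moved farthest, 11.9-fold and 10.9-fold higher, and Mcl1, by far the most abundant member, was 1.53-fold higher. These calls come from edgeR's quasi-likelihood test over 14626 genes, with Benjamini-Hochberg adjustment over all of them and a threshold of 0.05. Levels are given as CPM, a gene's counts relative to the size of its library, after edgeR's trimmed-mean scaling (TMM). Changes were common in these libraries: 65.7% of the genes tested were called, 33.0% higher and 32.7% lower. Against that background, 8 of 10 members were called, 7 higher and 1 lower. Among genes called and at least 2-fold higher, which made up 15.7% of the genes tested, were Bcl2a1a, Bcl2a1b, Bcl2a1d and Bax. The values of the groups did not overlap in 8 of the 10 members, and in 71.0% of the genes tested. The median log2 fold change was 1.07 over the pro-survival members and 0.03 over the pro-death members, beside 0.005 over all genes tested. The first of these counts the near-identical copies Bcl2a1a, Bcl2a1b and Bcl2a1d separately. Outside the members, the 4 other pro-death family genes tested were split, with a median of 0.77. Their log2 fold changes were -2.46 for Bmf, 0.30 for Bad, 1.25 for Bbc3 and 1.57 for Pmaip1. The 1 other pro-survival gene tested, Bcl2l2, was at -0.06, and 1 gene does not allow the sides to be compared.

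**Figure D1:**
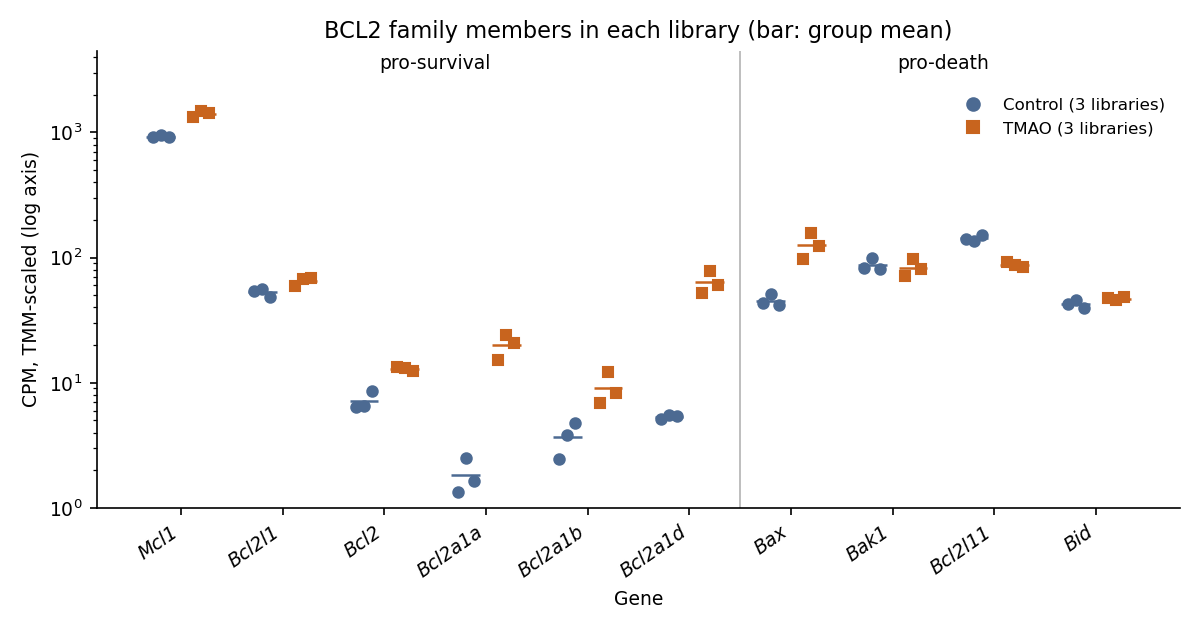
CPM (TMM-scaled, log axis) of the 10 members in each of the 3 control (circles) and 3 TMAO (squares) libraries, with bars at the group means. The TMAO libraries lie above every control library for the 6 pro-survival genes and Bax, below them for Bcl2l11, and overlap them for Bak1 and Bid.

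The libraries held 37759007 to 41735109 counts. Other features of the cells differed between the same groups, and their part in the results was not tested. Of 20 neutrophil and neutrophil precursor markers, 17 rose and 2 fell, with none at 0 in every library of a group. Their summed level was 493 to 540 CPM in controls and 4616 to 5875 CPM with TMAO. Mmp8, which was not called, and Csf3r, which fell, made up most of the control sum, at 232 and 167 CPM on average. The precursor genes Mpo and Elane averaged 0.041 and 0.101 CPM in controls and 158 and 234 CPM with TMAO. Of 12 monocyte markers 11 rose and none fell (417 to 515 against 1430 to 1485 CPM summed), and all 12 proliferation genes rose (78.7 to 83.3 against 403 to 457 CPM summed). Markers of macrophages, the myeloid type with the highest sum in both groups, were mixed: 5 of 15 rose and 6 fell. Of these, 4 fell at least 2-fold and 0 rose that far. The sums were 44827 to 49641 CPM in controls and 40449 to 49424 CPM with TMAO. Lyz2, which was not called, made up most of both, at 37023 and 37357 CPM on average. No macrophage or monocyte marker was at 0. B cell markers were low, at 18.04 to 20.4 against 41.9 to 44.7 CPM summed (7 of 9 tested rose, Pax5 and Ebf1 at 0 in controls). T and NK cell markers were near 0, at 0.875 to 1.04 against 2.94 to 3.70 CPM summed (1 of 2 tested rose). Of these, Cd3d, Cd3g, Trac, Ncr1, Prf1 and Nkg7 were at 0 in controls and Cd3e and Gzma with TMAO. Sums for mast cells, basophils and eosinophils were 0.484 to 1.24 against 19.0 to 23.4 CPM, and for stroma 5.53 to 5.61 against 7.14 to 9.02 CPM (3 of 3 and 1 of 6 tested rose). For the erythroid and megakaryocyte lineages the sum was 43.6 to 65.6 against 353 to 537 CPM. There, 5 of 6 tested rose, with the platelet gene Pf4 (50.9 and 383 CPM on average) making up most of it, and the haemoglobin gene Hbb-bs fell. For dendritic cells it was 529 to 689 against 295 to 347 CPM. Bst2 and Itgax fell, the other 6 genes called (of 10) rose, and Siglech was at 0 in controls. In such bulk samples, more cells of a type and more RNA per cell cannot be told apart.

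Mcl1 (ENSMUSG00000038612), whose short-lived protein binds both BAK1 and BIM, stood at 913, 948 and 915 CPM in Control 1, 2 and 3 and at 1318, 1477 and 1440 CPM in TMAO 1, 2 and 3. The lowest TMAO library lay above the highest control. The log2 fold change was 0.61 (SE 0.08, edgeR adjusted p = 0.000102). It remained between 0.58 and 0.66 in 21 alternative analyses, but the rise was not shown to exceed 1.5-fold (adjusted p = 0.350 in edgeR's test against that fold). No 100-base window of its 3418-base transcript recurred in a transcript of another gene.

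Bcl2l1 (ENSMUSG00000007659), the BCL-XL gene, showed the smallest rise of the pro-survival group. Its levels were 54.2, 56.3 and 48.8 CPM in the controls and 59.6, 67.5 and 69.0 CPM with TMAO, so that the groups were separate by a narrow margin. The log2 fold change was 0.30 (SE 0.10, edgeR adjusted p = 0.0193). The call was lost without Control 1 (adjusted p = 0.0620), without Control 3 (0.0852), without TMAO 3 (0.0878) and with the trend on GC content removed (0.304, at a log2 fold change of 0.10), and its adjusted p ranged from 0.00663 to 1 over the alternatives, the highest from the test against a fold of 1.5.

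Bcl2 (ENSMUSG00000057329), the founding gene of the family and a survival factor of lymphocytes in particular, was low. It gave 6.43, 6.57 and 8.60 CPM in the controls and 13.3, 13.01 and 12.3 CPM with TMAO. All 3 TMAO libraries exceeded the highest control, Control 3. The log2 fold change was 0.84 (SE 0.14, edgeR adjusted p = 0.000435), and 1.41 when the trend of counts on transcript length was removed. In the gene models used for symbols, 558 of its 9157 exon bases (6.09%) also lie in D630008O14Rik on the opposite strand, and without a stated strand setting reads there cannot be assigned.

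The 3 Bcl2a1 genes are recent copies on chromosome 9, and their counts have to be read together. Over the 516 coding bases, Bcl2a1a and Bcl2a1b differed at 11 positions, Bcl2a1a and Bcl2a1d at 7, and Bcl2a1b and Bcl2a1d at 6. Of the 12 positions that differ among the 3 genes, 6 lie in the first 90 coding bases, which are shown here from GENCODE transcripts because only reads over such positions tell the copies apart. Capitals mark the positions that differ.
Bcl2a1a: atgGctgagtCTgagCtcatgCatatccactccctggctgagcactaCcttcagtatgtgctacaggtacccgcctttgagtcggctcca
Bcl2a1b: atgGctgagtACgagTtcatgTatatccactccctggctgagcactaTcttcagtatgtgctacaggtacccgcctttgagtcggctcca
Bcl2a1d: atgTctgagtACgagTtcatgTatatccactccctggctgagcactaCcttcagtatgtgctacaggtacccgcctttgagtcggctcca
Of the 100-base windows in each transcript, 43.5% of those of Bcl2a1a, 56.8% of Bcl2a1b and 54.7% of Bcl2a1d were also present in a transcript of another gene. The gene model Gm29094, which is not analysed here, shares 401 of the 817 exon bases of Bcl2a1b (49.1%) on the same strand. How reads that fit more than 1 of these genes were counted is not given in the sources used here, so the values of each single copy are uncertain.

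Bcl2a1d (ENSMUSG00000099974) was the highest of the 3 copies in every library. It rose from 5.12, 5.51 and 5.43 CPM in the controls to 52.4, 78.2 and 60.4 CPM with TMAO, a log2 fold change of 3.57 (SE 0.16, edgeR adjusted p = 4.43e-08). Bcl2a1a (ENSMUSG00000102037) rose alongside, from 1.34, 2.49 and 1.65 CPM to 15.1, 24.0 and 20.9 CPM, with a log2 fold change of 3.45 (SE 0.24, edgeR adjusted p = 1.097e-06). In both genes every TMAO library was several times above every control, and TMAO 2 was the highest and TMAO 1 the lowest. Bcl2a1b (ENSMUSG00000089929) rose less, 2.47-fold, from 2.44, 3.84 and 4.75 CPM to 6.89, 12.2 and 8.26 CPM, with a log2 fold change of 1.30 (SE 0.26, edgeR adjusted p = 0.0014). Its log2 fold change was 0.82 with the length trend removed and 1.49 with the GC trend removed, and it was called in both cases. The adjusted p of all 3 genes stayed under 0.05 in each alternative that kept them separate, 20 for each gene.

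The sum over the Bcl2a1 rows, Bcl2a1c included, does not depend on which of these rows a read was assigned to. Reads that were dropped or assigned to Gm29094 would still be missing. The sum stood at 8.95, 11.9 and 11.9 CPM in the controls and 74.5, 115 and 89.6 CPM with TMAO. It was 8.51-fold higher (log2 fold change 3.09, SE 0.18, edgeR adjusted p = 2.58e-07 when fitted as 1 feature). Within the summed CPM of the 3 member copies, the share of Bcl2a1b was 27.5% to 40.2% in controls and 9.23% to 10.6% with TMAO, and that of Bcl2a1d was 45.9% to 57.5% and 67.4% to 70.4%. Neither range overlapped between groups. The share of Bcl2a1a did overlap, at 13.9% to 21.0% and 20.3% to 23.4%. A1 is known as a gene of neutrophils and of NF-kB signalling, and the summed neutrophil markers given above were higher in the same 3 libraries. Their part in the Bcl2a1 rise was not tested.

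The promoters of the 3 copies are nearly identical as well. In the RefSeq promoter table of build GRCm38.p6, which runs from 250 bases before to 50 after each gene's start, the aligned parts of the Bcl2a1a and Bcl2a1b promoters matched at 99.2% of 256 bases and those of Bcl2a1a and Bcl2a1d at 98.0% of 294 bases. The table matched all 10 members. Each Bcl2a1 window held 1 match, TGAATCA, to the AP-1-like pattern TGANTCA, in which N is any base. It lay a few bases before 1 ETS motif of the PU.1 type (GAGGAAGT). Both are shown in capitals, 5′ to 3′ on the gene's strand.
Bcl2a1a, chr9:88956775-88956863, plus strand: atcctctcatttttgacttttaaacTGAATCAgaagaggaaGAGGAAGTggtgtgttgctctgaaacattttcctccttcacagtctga
Bcl2a1b, chr9:89199084-89199172, plus strand: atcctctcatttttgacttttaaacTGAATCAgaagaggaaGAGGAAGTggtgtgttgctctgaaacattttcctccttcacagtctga
Bcl2a1d, chr9:88731907-88731989, minus strand: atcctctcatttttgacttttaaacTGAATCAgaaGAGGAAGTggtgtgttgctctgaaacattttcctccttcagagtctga
Bcl2a1a, which rose 10.9-fold, and Bcl2a1b, which rose 2.47-fold, carry the same letters over all 89 bases of this stretch. Over all 32851 promoters in the table, 7.81% held the AP-1-like pattern and 3.20% the ETS motif on either strand. The ETS motif was also in the Bak1 window. The other motifs searched on both strands were the NF-kB consensus (4.505% of promoters, found here only in a Bcl2l1 window), the STAT motif TTCNNNGAA (8.30%, in no member window), the forkhead motif GTAAACA (3.65%) and the E-box CACGTG (7.15%). These matches describe letters, not sites of binding, and the motif set was chosen with the results known.

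Bax (ENSMUSG00000003873), the effector that moves from the cytosol to mitochondria, was the pro-death gene that rose. Its levels were 43.2, 51.0 and 41.6 CPM in the controls and 96.8, 157 and 123 CPM with TMAO. Each TMAO library was above every control, and the TMAO libraries spread 1.62-fold among themselves. The log2 fold change was 1.47 (SE 0.16, edgeR adjusted p = 2.17e-05), which is 2.77-fold. The Bax promoter window held 2 copies of the E-box, the motif of MYC and related factors, on either side of the start. The upstream copy, 9 bases before the start, is shown in capitals.
Bax, chr7:45466899-45466967 of GRCm38.p6, minus strand: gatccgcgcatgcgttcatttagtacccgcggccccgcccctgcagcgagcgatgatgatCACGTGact

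Bak1 (ENSMUSG00000057789), the effector that resides on mitochondria, gave 82.7, 99.4 and 81.4 CPM in the controls and 71.5, 97.5 and 80.6 CPM with TMAO. TMAO 1 and TMAO 3 lay below every control and TMAO 2 lay among them, and the log2 fold change of -0.08 (SE 0.13) did not pass the test (edgeR adjusted p = 0.601). Its sign turned without Control 2 or without TMAO 1 (log2 fold change 0.02 in each case), and with the GC trend removed it was called lower (-0.30, edgeR adjusted p = 0.0479, range over the alternatives 0.0479 to 1). Of its 2407 exon bases, 614 (25.5%) also belong to Ggnbp1 on the opposite strand, and of the 1576 of Bax, 192 (12.2%) belong to Gm45808 on the same strand.

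The libraries differed in how far short transcripts outweighed long ones, and among the TMAO libraries Mcl1, Bax, Bak1 and the 3 Bcl2a1 genes followed the same order. The median log2 CPM of the shortest 20% of genes minus that of the longest 20% was -4.06, -3.78 and -4.13 in Control 1, 2 and 3 and -3.30, -2.78 and -2.94 in TMAO 1, 2 and 3. TMAO 2 had the highest and TMAO 1 the lowest value of the TMAO libraries, as for those 6 genes. Control 2, the highest control, was also the highest control for Mcl1, Bcl2l1, Bax, Bak1, Bid, Bcl2a1a and Bcl2a1d. The median log2 fold change was 0.49 over the shortest 20% of genes and -0.53 over the longest. The Bax transcript has 1100 bases and the Bcl2a1 transcripts 817 to 863. With the length trend removed, the log2 fold changes were 1.04 for Bax, 3.11 for Bcl2a1d and 2.99 for Bcl2a1a, and all were called. With the GC trend removed, that of Bax was 1.10 (edgeR adjusted p = 9.35e-05).

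Of the BH3-only members, Bcl2l11 (ENSMUSG00000027381), which encodes the activator BIM, fell. It stood at 142, 135 and 153 CPM in the controls and at 91.5, 86.8 and 84.4 CPM with TMAO, with every TMAO library below every control. The log2 fold change was -0.71 (SE 0.09, edgeR adjusted p = 4.20e-05), or 1.63-fold lower. It was -0.37 with the length trend removed (edgeR adjusted p = 0.000377), and a fall beyond 1.5-fold was not shown (adjusted p = 0.0719 in edgeR's test against that fold). Bcl2l11 is a known target of forkhead (FOXO) factors, and 1 of its 2 promoter windows held the forkhead motif, shown in capitals.
Bcl2l11, chr2:128125791-128125857 of GRCm38.p6, plus strand: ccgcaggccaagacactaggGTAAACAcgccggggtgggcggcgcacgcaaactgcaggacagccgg
Bid (ENSMUSG00000004446), which links death receptors to mitochondria once caspase-8 has cut its protein, gave 42.5, 46.2 and 39.9 CPM in the controls and 47.6, 45.7 and 48.1 CPM with TMAO. The groups overlapped through Control 2 and TMAO 2, and the log2 fold change of 0.14 (SE 0.09) did not pass the test (edgeR adjusted p = 0.205, range over the alternatives 0.120 to 1). Bid and Bcl2l13 share 628 bases on opposite strands, 17.7% of the exon bases of Bid.

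**Figure D2:**
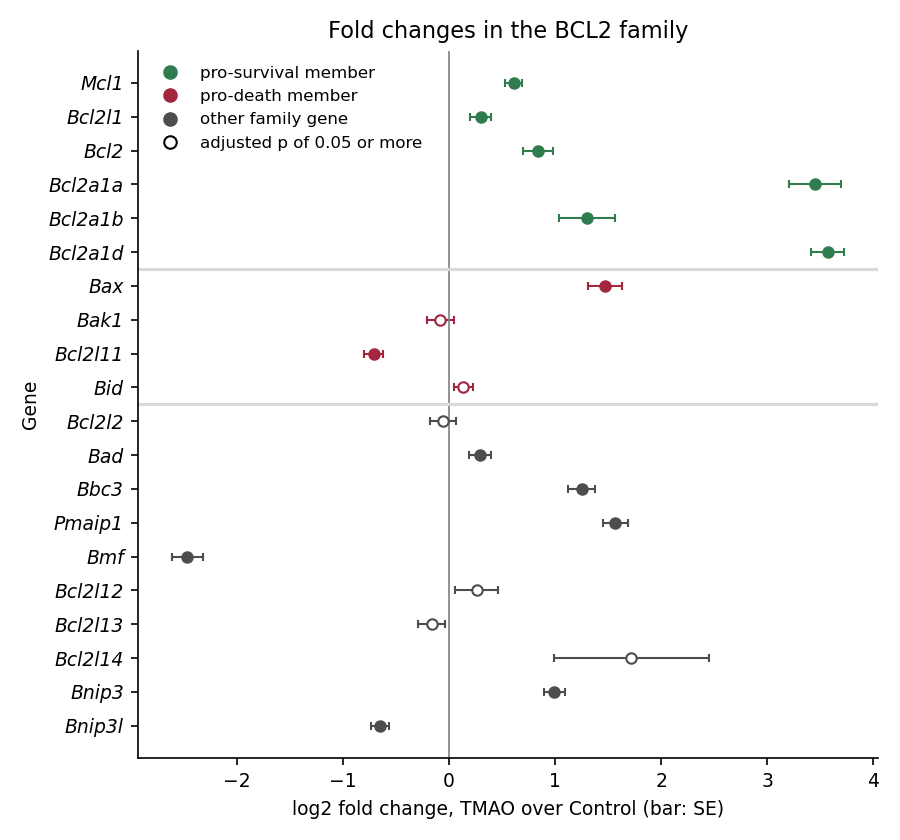
Log2 fold change, TMAO over control, with its SE (edgeR), for the 6 pro-survival members, the 4 pro-death members and the 10 other family genes that were tested. Filled points passed an adjusted p of 0.05. The pro-survival members all lie right of 0, from 0.30 for Bcl2l1 to 3.57 for Bcl2a1d, while Bmf lies farthest left at -2.46.

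Compared per length (RPKM, from TMM-scaled CPM and the longest annotated transcript), Mcl1 dominated in both groups, at 271 ± 5.80 in controls and 413 ± 24.3 with TMAO (mean ± SD, n = 3 per group). In controls Bax (41.2 RPKM) and Bak1 (36.8) followed and overlapped each other. Then came Bcl2l11 at 28.4, Bcl2l1 at 20.7 and Bid at 17.7 RPKM, of which Bcl2l1 and Bid overlapped. Bcl2a1d (6.20), Bcl2a1b (4.50), Bcl2a1a (2.23) and Bcl2 (1.00) were the lowest, and of these neighbours only Bcl2a1b and Bcl2a1a overlapped. With TMAO the order changed: Bcl2a1d went from the seventh to the third place at 73.8 ± 15.3 RPKM, with values that overlapped those of Bax at 114 ± 27.4, and Bcl2l11 went from the fourth to the eighth at 17.4 ± 0.721. Bcl2a1a, at 24.4 RPKM, overlapped Bcl2l1 at 25.5 and Bid at 19.5, and Bcl2 stayed last at 1.79 RPKM.

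As shares of the summed RPKM, Mcl1 made up 88.2% to 89.1% of the pro-survival transcripts in controls and 72.6% to 77.4% with TMAO. The 3 Bcl2a1 genes made up 3.52% to 4.67% and 17.6% to 22.7%, with the uncertainty in read counting given above. Among the pro-death members Bax held between 31.9% and 34.6% of the sum in controls and between 56.5% and 64.9% with TMAO. Bcl2l11 held between 20.04% and 25.5%, and between 7.85% and 11.7%. The pro-survival share of all 10 members was 70.1% to 71.8% in controls and 73.0% to 76.2% with TMAO. These ranges did not overlap, although the gap between them was small beside the shifts within each side. The trend on transcript length given above was not removed from the shares.

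Ratios within a library do not depend on the scaling between libraries, and they did not all point one way. They were not corrected for the trend on transcript length given above. With that trend removed, the log2 fold changes of Mcl1, Bcl2l1 and Bax were 0.66, 0.21 and 1.04. Those of Bcl2 and Bcl2l11 were then 1.41 and -0.37. In each library the mean log2 CPM of the pro-death members was taken from that of the pro-survival members, with the Bcl2a1 genes summed as 1. The result was -0.73, -0.73 and -0.54 in the controls and 0.34, 0.32 and 0.36 with TMAO, a difference of 1.01 on the log2 scale. Each feature counts equally in this mean, and the low Bcl2a1 sum moved farthest, at a log2 fold change of 3.09. Those of Bcl2, Mcl1 and Bcl2l1 were 0.84, 0.61 and 0.30. The log2 ratio of Bcl2 to Bcl2l11 rose from a mean of -4.31 ± 0.16 to -2.76 ± 0.02 and that of summed Bcl2a1 to Bid from -1.99 ± 0.25 to 0.95 ± 0.34 (SD, n = 3 per group). For Mcl1 and Bcl2l1 against Bax the order was the opposite. The log2 ratio of Mcl1 to Bax was 4.40, 4.22 and 4.46 in the controls and 3.77, 3.23 and 3.55 with TMAO, and that of Bcl2l1 to Bax was 0.33, 0.14 and 0.23 against -0.70, -1.22 and -0.83. This does not extend to the summed Bcl2a1 genes, whose log2 fold change of 3.09 exceeded the 1.47 of Bax. None of the 5 measures overlapped between groups. They are descriptions without a test, since the members were chosen with earlier results known.

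**Figure D3:**
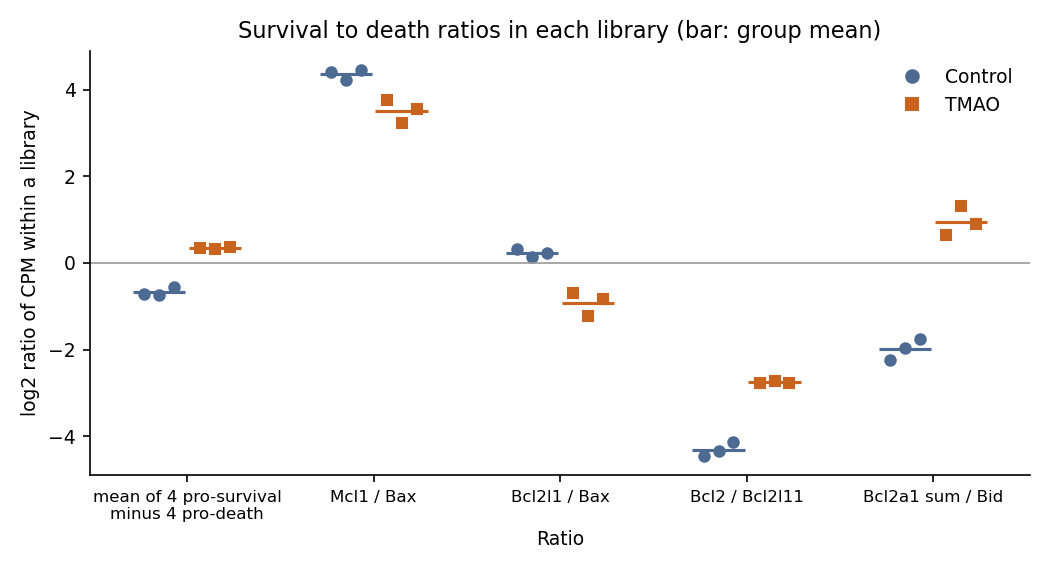
Log2 ratios of pro-survival to pro-death CPM within each library, for the mean of the members (Bcl2a1 genes summed as 1) and 4 gene pairs. Circles are control and squares TMAO libraries, with bars at the group means. The mean balance and the ratios to Bcl2l11 and Bid are higher with TMAO, while the ratios of Mcl1 and Bcl2l1 to Bax are lower.

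Of 16 other BCL2 family genes, 10 were tested: 4 rose, 2 fell and 4 did not pass the test (median log2 fold change 0.28), beside the 65.7% called over all genes tested. The BH3-only genes were split. Bmf, whose protein is tied to the cytoskeleton until released, fell 5.51-fold, from 34.1, 31.6 and 36.9 CPM to 7.29, 5.03 and 6.26 CPM, with a log2 fold change of -2.46 (SE 0.14, edgeR adjusted p = 3.19e-07). Pmaip1, which encodes NOXA, the partner of MCL1, rose 2.96-fold, from 7.05, 7.97 and 7.51 CPM to 21.9, 24.4 and 20.4 CPM, with a log2 fold change of 1.57 (SE 0.12, edgeR adjusted p = 1.78e-06). Bbc3, which encodes the p53 target PUMA, rose 2.38-fold, from 11.45, 10.3 and 9.96 CPM to 21.5, 27.5 and 26.6 CPM. In these 3 genes the groups were widely separate. Bad rose 1.23-fold (edgeR adjusted p = 0.0276). With Bax, Pmaip1 and Bbc3 are textbook targets of p53.

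The mitophagy receptors related to the family moved apart. Bnip3 rose from 23.5 ± 1.80 to 46.8 ± 3.44 CPM and Bnip3l fell from 205 ± 7.78 to 131 ± 7.40 CPM (SD, n = 3 per group). The pro-survival gene Bcl2l2, which encodes BCL-W, was at 35.03 ± 2.33 and 33.7 ± 5.22 CPM and was not called (edgeR adjusted p = 0.697). Nor were Bcl2l12, Bcl2l13 and Bcl2l14 (0.287, 0.295 and 0.0602). Bok, Bik, Hrk, Bcl2l10, Bcl2l15 and Bcl2a1c had too few counts to be tested. Bik had 5 counts in all control libraries and 44 in all TMAO libraries, of which 32 were in TMAO 2, and the other 5 had at most 15 counts in a group.

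Around and downstream of the mitochondria, 4 lists of pathway genes were read against the same background, in which 33.0% of genes were higher and 32.7% lower. Over the 4 lists 10 genes rose and 17 fell of 38 tested, and with the length trend removed 14 rose and 13 fell. Of 12 genes of the apoptosome and the caspases 7 fell and 2 rose, and the list's median log2 fold change was -0.46. Apaf1, the scaffold of the apoptosome, fell from 71.3 ± 6.53 to 38.6 ± 0.539 CPM (SD, n = 3 per group), at an edgeR adjusted p of 1.86e-05. Its transcript is long, at 6577 bases, and the part of transcript length in this fall was not tested. Cycs, the cytochrome c gene, rose from 48.6 ± 7.53 to 95.6 ± 10.8 CPM. It is named here, with Endog (2.08-fold higher), after its value was seen.

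In a list of 8 genes of the caspase-inhibiting IAP family and its relatives, 4 fell and 1 rose, a share called near that of all genes tested (65.7%). The list leaves out the family gene Birc5, counted above with the proliferation genes. Birc5 rose 25.7-fold, from 0.933 to 24.0 CPM on average. Xiap, the direct caspase inhibitor, had a log2 fold change of -1.58, from 125, 105 and 142 CPM to 47.4, 36.5 and 40.2 CPM (edgeR adjusted p = 3.67e-06). Naip6 and Naip5, whose proteins sense bacterial flagellin, fell 3.30-fold and 1.83-fold. The transcripts of Xiap, Naip6 and Naip5 are long, at 6834, 6827 and 5204 bases. Over all tested genes of 4928 bases or more the median log2 fold change was -0.53. The part of transcript length in these falls was not tested. Birc3, named after its value was seen, rose 1.47-fold.

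In the death receptor pathway 6 of 11 genes rose and 2 fell, beside 33.0% and 32.7% over all genes tested. Fas rose 2.90-fold, from 15.4 ± 3.31 to 44.7 ± 4.35 CPM, and Tnfrsf12a, the receptor of TWEAK, 2.74-fold, whereas Mlkl, the pore protein of necroptosis, fell 2.33-fold, from 27.7 ± 1.34 to 11.9 ± 0.452 CPM. The edgeR adjusted p of these 3 was 1.04e-05, 2.34e-05 and 2.997e-06. Of 7 tested genes in a list drawn up around the turnover of MCL1, 4 fell and 1 rose. Huwe1, a ubiquitin ligase of MCL1, had 209, 157 and 250 CPM in the controls and 142, 111 and 117 CPM with TMAO, and Usp9x, which removes ubiquitin from MCL1, had 174, 128 and 202 and then 84.6, 47.0 and 48.5 CPM. Both were called lower (edgeR adjusted p = 0.00218 and 0.000244). Trib1, an adaptor of ubiquitin ligases, rose 4.41-fold, and no value here ties it to MCL1. The Huwe1 and Usp9x transcripts are long, at 14579 and 11887 bases, and their log2 fold changes were -0.74 and -1.48. Over all tested genes with transcripts of 4928 bases or more the median was -0.53. For both genes Control 2 was the lowest control and TMAO 1 the highest TMAO library, the reverse of the order given above for short transcripts. The part of transcript length in these 2 falls was not tested. In the TMAO libraries the neutrophil markers given above were higher.

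**Figure D4:**
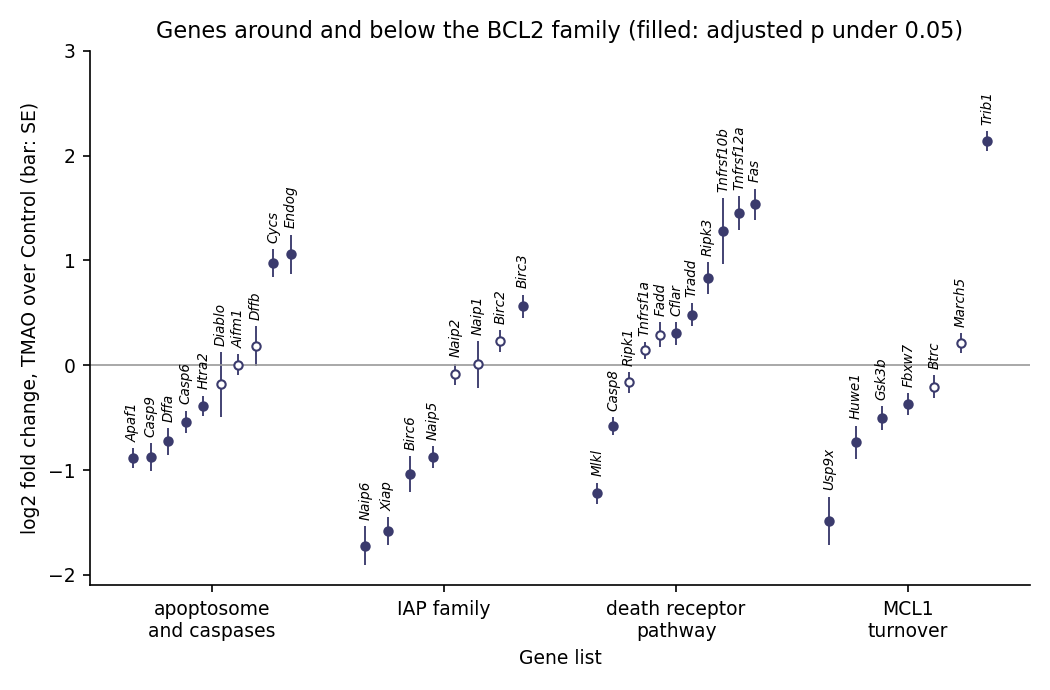
Log2 fold change, TMAO over control, with its SE (edgeR), for 36 of the 38 tested genes in 4 lists around the BCL2 family. Filled points passed an adjusted p of 0.05. Of the genes plotted from the apoptosome and caspase list, 5 lie below 0 and passed, and Cycs and Endog passed and lie above.

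At the outer mitochondrial membrane, 4 of 7 partner and membrane dynamics genes rose and 2 fell, beside 33.0% and 32.7% over all genes tested. Vdac3 and Mtch2, of which the latter encodes a receptor for truncated BID, had log2 fold changes of 0.50 and 0.39, and Opa1, a fusion protein of the inner membrane, of -0.87. The Opa1 transcript is long, at 6230 bases, and the part of transcript length in its fall was not tested.

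Outside the lists, 9062 tested genes averaged 5 CPM or more, once genes without a proper symbol (such as Gm numbers and Rik names) and mitochondrially encoded genes were set aside. Among them, the genes whose log2 CPM ran most like Bcl2a1d over the 6 libraries were Gadd45a and Chtop (Pearson r = 0.9999 for each). For Bax they were Pdcd6 and Kti12 (r = 0.9994 for each) and for Bcl2l11 Atl3 and Stk4 (r = 0.9997 and 0.9996). The 6 points fall into the 2 groups, so the values describe likeness only and carry no test. Nor does r reflect the size of a change. Gadd45a was at 14.8, 16.0 and 15.6 CPM in the controls and 194, 290 and 230 CPM with TMAO. Chtop was at 87.1, 87.8 and 87.4 CPM in the controls and only 139, 149 and 143 CPM with TMAO.

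**Figure D5:**
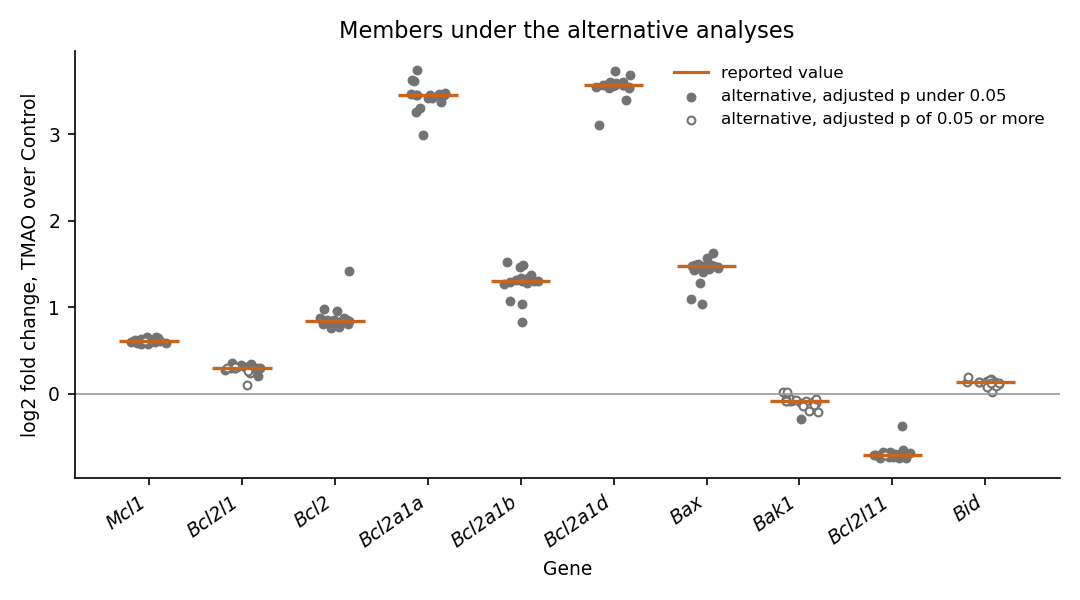
Log2 fold change of each member in the reported fit (line) and in its 20 or 21 alternative analyses (points, filled where the adjusted p is under 0.05). The points of 9 members keep the sign of the reported value, and those of Bak1 lie on both sides of 0, from -0.30 to 0.02.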

How the data were processed

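The values the authors deposited are raw counts by Ensembl gene, unnormalized whole numbers, in 1 table. The submitters' processing notes name GRCm39 as the build, while aligner, counting tool and strand setting were not given in the sources used here. Descriptions matched columns to samples, and titles gave groups and replicate numbers. Symbols, transcript lengths and GC content came from GENCODE GRCm38 gene models, an older build, by ID for 25386 of 25751 rows. Replicate pairs differed beyond sampling noise (chi-square per degree of freedom 13.0 to 65.6).

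Counts were fitted in edgeR 4.0.16 (R 4.3.3) with default settings: filterByExpr with a minimum count of 10, TMM factors and the quasi-likelihood F test without covariates, adjusted by Benjamini-Hochberg over 14626 genes. CPM are TMM-scaled, an SE is the absolute log2 fold change over the root of F, and log2 CPM used a prior count of 2. The fit was tested on simulated data. Alternatives were DESeq2 1.42.0, limma-voom (limma 3.58.1), other moderation, normalization and filters, a test against a fold of 1.5, the top 20 genes by abundance removed, a replicate block, each library left out, summed Bcl2a1 genes, and the length or GC trend removed. The GC correction was added after the data were seen. Members, gene lists and tests were chosen with earlier results of these data known. Named beside the members are the other family genes, the 3 genes of smallest p in each pathway list, and the 2 genes most correlated with the member of smallest p in each role. Some genes that the rule named are left out and not reported here.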

Additional observations from a re-analysis of the deposited data

How the results depend on the processing

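Of 207 member values under alternatives, 197 kept their direction and side of the threshold. The exceptions are those of Bcl2l1, Mcl1, Bcl2l11 and Bak1 given above, and Bak1 ran from -0.206 to 0.0202 over the libraries left out one at a time (0.0202 without Control 2, 0.0169 without TMAO 1). In the test against a fold of 1.5, 2630 genes were called higher and 2554 lower (4830 and 4778 without it). Of the pro-death members, 1 was then higher and 0 lower, of the other family genes 1 was lower, and of the pathway genes 6 were higher and 10 lower. That test asks for a larger change by construction. With the GC trend removed, 2 pro-death members were lower, and the cause was not tested. The pro-survival balance moved from 1.01 to 1.47 with the Bcl2a1 genes as separate members and to 1.25 with medians; the cause was not tested. With the replicate number as a block, 4887 genes were higher and 4836 lower and no member's call changed. Deviations from the group means correlated at 0.03, 0.13 and -0.07 between same-numbered libraries, and at -0.19 to 0.16 between differently numbered ones. With 3 libraries per group, these values cannot decide whether the numbers pair the samples. At these depths, 6 other family genes had too few counts to be tested.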
